A study of Mus musculus with 20 samples.

Results

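The comparison is that of long-term haematopoietic stem cells (LT-HSC) labelled Ahr-KO with wild-type (WT) LT-HSC. It takes every LT-HSC library of the series, 5 Ahr-KO (numbers 1, 2, 3, 4 and 7) and 5 WT (numbers 1, 4, 5, 6 and 8), so 10 of 20 libraries, and all 49568 genes of the table. The results are given with all 10 libraries and with the library WT 1 left out, which leaves 9. The WT mice were C57BL/6 and the others were labelled AHR KO, with no allele, promoter or clone named. All were 8 to 12 weeks old and untreated, and LT-HSC were sorted from their bone marrow by flow cytometry; the labels do not list the sort markers. Polyadenylated RNA was sequenced with an unstranded kit. The same passage of the labels speaks of dendritic cells in groups of 3, which are neither these cells nor these numbers. The labels do not say that each library came from its own animal, so p-values measure only the spread between these libraries, and they name no batch or date. The question, per the series' design, is which genes AHR governs in the function and proliferation of stem cells.

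AHR, the aryl hydrocarbon receptor, is a transcription factor that waits in the cytoplasm in a complex with the chaperone HSP90. Once a ligand is bound it enters the nucleus, pairs with ARNT and binds DNA at elements with the core GCGTG, which switch on genes such as those of the cytochrome P450 family 1. AHRR and TIPARP, both induced by the receptor, damp it. In the marrow, LT-HSC are rare, mostly resting cells that renew themselves and supply all blood lineages, and blocking AHR is known to favour the expansion of human stem cells in culture.

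Totals ranged from 16133048 to 21622653 counts per library. Values per library below are CPM, counts scaled to the same total in each library after TMM normalisation. Stem cell genes were high in every library: Kit, the receptor of stem cell factor, stood between 1510 and 1961 CPM in the 9 libraries and at 623 in WT 1, and Slamf1, Procr and Hlf were at 21.7 CPM or more throughout. Flt3, a gene of multipotent progenitors, was at 41.1 to 66.7 CPM. In the series' libraries of multipotent progenitors its means were 361 CPM in Ahr-KO and 472 in WT. The single genes Kit, Slamf1, Procr, Hlf and Flt3 were picked for the text after their values were seen.

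3 libraries stood apart. WT 1 had counts for 21599 genes against 23564 to 25602 in the others, and 0.386% of its counts were of mitochondrially encoded genes against 1.07% to 1.65%. Of 11013 genes at 5 CPM or more in each of the 9 others, 70 were under 1 CPM in WT 1 and 7 had no count at all; for every other library both numbers were 0. Its log2 levels correlated with those of the other WT libraries at 0.909 to 0.915 across genes. Ahr-KO 2 and 3 carried RNA of mature blood cells. The 20 neutrophil genes, such as Ltf, Ngp and S100a8, summed to 3639 and 3787 CPM in these libraries, against 143 to 555 in the other Ahr-KO and 96.6 to 1496 in WT. Ltf, a secondary granule protein, was at 128 and 271 CPM there and at most 1.05 in the 8 other libraries. Mpo alone gave 1475 and 1329 CPM of the neutrophil sums of Ahr-KO 2 and 3. In the series' libraries of multipotent progenitors the same 20 genes summed to 3247 to 12152 CPM, so the sum does not tell mature cells from progenitors. The 19 multipotent progenitor genes were also higher in Ahr-KO 2 and 3, at 2848 and 2675 CPM against 794 to 1762 in the 8 others. The 20 monocyte and macrophage genes summed to 2976 and 3341 CPM against 549.7 to 889, and the 19 erythroid genes to 5172 and 5570 against 2221 to 4002. The 20 B and plasma cell genes reached 2189 CPM in Ahr-KO 2 and 1057 in WT 5, where Ighm and Igkc made up most of it, and Ahr-KO 3 alone held 2081 CPM of Col1a1, the collagen of bone and mesenchyme. In the plot of marker sums these libraries lie above the rest of their groups for the lists just described, but not for every list. The T and NK cell genes summed to 157 and 143 CPM in Ahr-KO 2 and 3, against 63.9 to 160.3 in WT. Their mast cell and basophil sums (684 and 534 CPM) and endothelial sums (1072 and 1065 CPM) also lay within the WT range. The megakaryocyte and platelet genes summed to 2755 and 2424 CPM there, against 2502 to 2910 in WT.

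**Figure D1:**
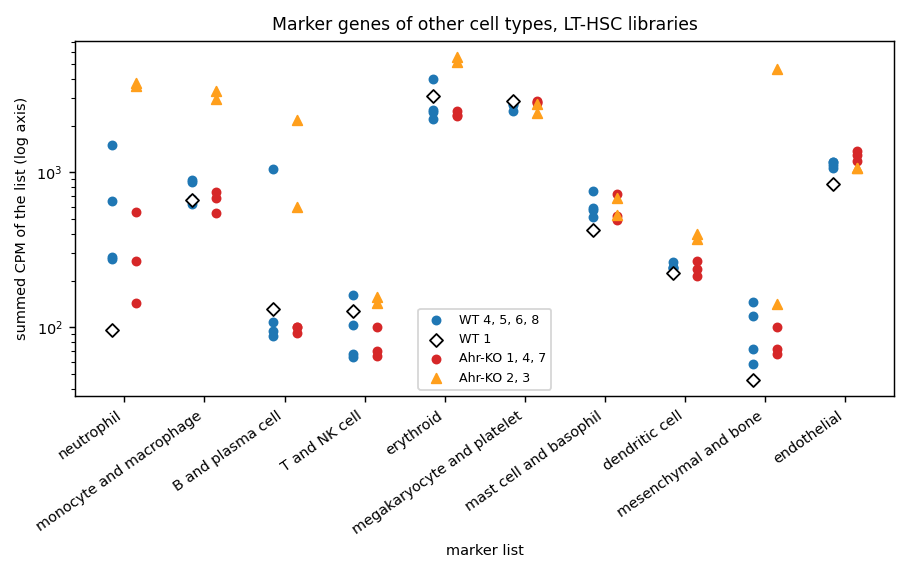
Summed CPM (log axis) of 10 lists of marker genes of other cell types, 1 point per LT-HSC library. The neutrophil and monocyte sums of Ahr-KO 2 and 3 (triangles) lie above all other libraries, at 2976 CPM or more, and the mesenchymal sum of Ahr-KO 3 reaches 4649 CPM.

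The targeted gene was still transcribed in the libraries labelled Ahr-KO. Ahr, on chromosome 12 from 35497974 to 35535038 (GRCm38), had 22.3, 28.7, 21.1, 24.8 and 36.9 CPM in WT 1, 4, 5, 6 and 8. It had 30.2, 22.3, 23.7, 18.6 and 25.4 CPM in Ahr-KO 1, 2, 3, 4 and 7. The groups overlapped: the log2 fold change of Ahr-KO over WT was -0.15 ± 0.18 (SE) with 10 libraries (edgeR quasi-likelihood test, adjusted p = 0.861) and -0.21 ± 0.17 without WT 1 (adjusted p = 0.527). A count per gene does not tell which exons the reads fell on, so it does not check the genotype.

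With 10 libraries, 1 gene passed the test at an adjusted p under 0.05, Garnl3, of 16065 genes tested (0.00622%). At an unadjusted p under 0.05 there were 1422 genes (8.85%). Without WT 1, 203 of 16338 genes passed (1.24%), 70 higher (0.428%) and 133 lower (0.814%) in Ahr-KO, and 3089 genes (18.9%) had an unadjusted p under 0.05. Of the 201 called genes that were also tested with 10 libraries, 200 had the same sign there. Across all 10 libraries the groups did not overlap for 41 of the 70 higher and 40 of the 133 lower genes, against 3.73% of all genes tested. In the 9 libraries used for the calls they did not overlap for 70 and 131 of them. The signs and overlaps with 10 libraries use these 9 again, so they give no separate support and show only where WT 1 lay. WT 1 was below all other WT libraries in 110 of the 133 lower genes, against 6906 of all 16338 tested. Of the 70 higher genes it was above them in 38 and below them in 26, against 6336 above among all genes.

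The number of calls rests on few libraries. Without WT 1, taking out 1 more WT library left 12 (without WT 8), 15 (WT 6), 28 (WT 4) or 37 calls (WT 5), and taking out 1 Ahr-KO library left 70 (Ahr-KO 2), 81 (Ahr-KO 3), 125 (Ahr-KO 4), 214 (Ahr-KO 1) or 292 (Ahr-KO 7). Without Ahr-KO 2 and 3, the libraries with mature cell RNA, 32 genes were called (0.195%), 11 higher (0.0670%) and 21 lower (0.128%), and 30 of them were among the 203. With 10 libraries, leaving out WT 5 or WT 6 ended the call of Garnl3. In a bulk sample, fewer cells that express a gene and less RNA of it per cell cannot be told apart.

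The called genes differed by transcript length. The summed exon length had a median of 7499 bases for the lower genes, 2138 for the higher and 3675 over all genes tested. Of the 3955 genes of at most 1848 bases, 34 were called higher and 5 lower, and of the 3953 genes of 6075 bases or more, 7 were higher and 84 lower. The libraries themselves followed length in the same way. For each of the 9 libraries, a gene's exon length was set against its deviation from the mean of the others of the 9. The rank correlation was 0.14 to 0.30 in WT 4, 5, 6 and 8 and -0.20 to -0.04 in the 5 Ahr-KO libraries, so the groups did not overlap in this measure. The tenth of genes with the longest exons had a median of 11562 bases. There the median deviation from the mean of all 9 libraries was 0.04 to 0.11 in WT 4, 5, 6 and 8 on the log2 scale. It was -0.10 to -0.01 in Ahr-KO and -0.98 in WT 1. Whether this trend is of the genotype or of the libraries cannot be told apart.

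**Figure D2:**
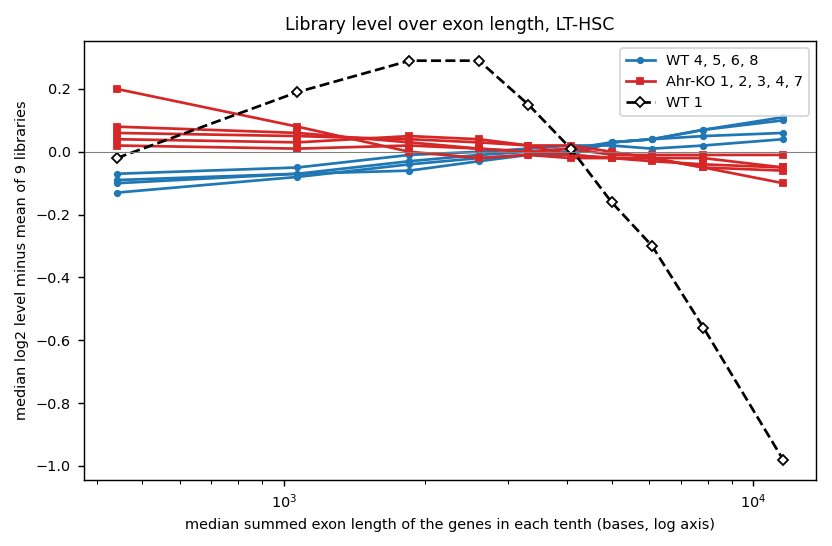
Median log2 level of each LT-HSC library minus the mean of the 9 libraries (y axis), over 10 equal groups of genes ordered by summed exon length (x axis, bases, log axis). WT 4, 5, 6 and 8 run from below 0 to 0.04 or more, the 5 Ahr-KO libraries run the other way, and WT 1 falls to -0.98.

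An offset for this length trend in each library, added after seeing the data, left 60 called genes without WT 1, 25 higher and 35 lower, of which 55 were among the 203. The median log2 fold change of the 70 higher genes was 0.41 without and 0.36 with the offset, and that of the 133 lower genes -0.51 and -0.43. A set of 8 higher and 13 lower genes was called in all 3 fits, that is without WT 1, with the offset, and without Ahr-KO 2 and 3. Garnl3, Csf3r, Fut8, Apoe, Srp54a, Srp54b, Psmb8, Jun, Gem, Ide, Fgfbp3, Ccnl1 and Rrnad1 also passed with the offset and the omission of Ahr-KO 2 and 3 together.

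Garnl3, named for its similarity to proteins that switch off Rap GTPases, was the highest of the called genes above 5 CPM. It lies on chromosome 2 and had 0.957, 2.70, 2.22, 2.24 and 2.90 CPM in WT 1, 4, 5, 6 and 8. The Ahr-KO libraries 1, 2, 3, 4 and 7 had 20.2, 23.4, 14.3, 29.0 and 32.4 CPM. Every Ahr-KO library was above every WT library, and the means differed 9.48-fold (23.8 ± 7.14 against 2.51 ± 0.341 without WT 1, SD, n = 5 and 4). The log2 fold change was 3.43 ± 0.32 with 10 libraries (adjusted p = 0.00687) and 3.24 ± 0.24 without WT 1 (adjusted p = 2.64e-04). Of the 30 tested genes of Rap regulators, Garnl3 was the one that passed, and the median of the list was -0.08 against 0.02 for all genes tested.

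The 250 bases before the transcription start are shown for the 2 highest and 2 lowest called genes of at least 5 CPM on average with an entry in the RefSeq table (GRCm38.p6), because the comparison is of a receptor that binds GCGTG. They are Garnl3 (chr2:33131437-33131686, minus strand), the G protein-coupled receptor gene Gpr160 (chr3:30855700-30855949, plus strand), the ankyrin repeat gene Ankrd16 (chr2:11777503-11777752, plus strand) and the nuclear long noncoding RNA Firre (chrX:50635322-50635571, minus strand). Letters are 5′ to 3′ on the gene's strand, and capitals mark GCGTG or its reverse complement CACGC.
Garnl3: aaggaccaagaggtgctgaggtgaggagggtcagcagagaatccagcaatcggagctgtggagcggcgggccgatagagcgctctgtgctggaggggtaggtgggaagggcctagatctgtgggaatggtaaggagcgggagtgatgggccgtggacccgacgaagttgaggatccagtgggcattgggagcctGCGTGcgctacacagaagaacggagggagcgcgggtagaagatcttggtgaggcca
Gpr160: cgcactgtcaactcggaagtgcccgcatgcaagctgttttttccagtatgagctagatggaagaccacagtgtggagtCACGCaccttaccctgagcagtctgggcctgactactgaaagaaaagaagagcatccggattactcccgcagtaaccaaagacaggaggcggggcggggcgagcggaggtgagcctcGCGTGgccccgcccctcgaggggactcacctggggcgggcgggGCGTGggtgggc
Ankrd16: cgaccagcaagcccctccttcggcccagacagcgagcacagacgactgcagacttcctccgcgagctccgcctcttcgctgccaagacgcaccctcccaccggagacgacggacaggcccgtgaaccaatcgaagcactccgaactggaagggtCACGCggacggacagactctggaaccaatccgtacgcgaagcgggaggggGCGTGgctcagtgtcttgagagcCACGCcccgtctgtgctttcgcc
Firre: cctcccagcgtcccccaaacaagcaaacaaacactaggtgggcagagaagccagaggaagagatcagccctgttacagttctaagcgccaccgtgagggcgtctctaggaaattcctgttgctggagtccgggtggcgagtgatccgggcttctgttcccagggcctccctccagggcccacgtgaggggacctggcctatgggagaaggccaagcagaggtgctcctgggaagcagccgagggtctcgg
The window of Garnl3 holds 1 match, those of Gpr160 and Ankrd16 hold 3 each, and that of Firre holds 0. Over the 32851 entries of the table, 28.2% hold the motif on either strand, and 43.3% of the 13184 entries of genes tested do. Entries were found for 38 of the 70 higher genes, where 40.4% of 47 windows held it, and for 103 of the 133 lower genes, where 58.2% of 122 did. A match is of letters only and shows no binding.

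Genes of surface receptors and lineage regulators were among the higher genes. Csf3r, the receptor of the granulocyte growth factor G-CSF, had 46.7, 69.1, 70.2, 71.0 and 76.3 CPM in WT 1, 4, 5, 6 and 8 and 112, 130.2, 138, 139.7 and 119 in Ahr-KO 1, 2, 3, 4 and 7. All Ahr-KO libraries were above all WT libraries, and those with mature cell RNA were not apart from the rest. The log2 fold change was 0.84 ± 0.08 without WT 1 (adjusted p = 6.95e-04) and 0.78 with Ahr-KO 2 and 3 left out as well (adjusted p = 0.0102); with 10 libraries it was 0.94 ± 0.13 (adjusted p = 0.0950). It was the only one called of 47 tested cytokine and growth factor receptor genes, whose median was -0.03.

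Gata1, the master factor of red cells and platelets, and Sox18, a factor of endothelium, were the 2 of 27 tested stem, erythroid and megakaryocyte factors that rose. Gata1 had 65.1 CPM in WT 1 and 31.5, 46.3, 44.9 and 38.7 in WT 4, 5, 6 and 8, against 63.8, 86.8, 65.3, 59.6 and 56.0 in Ahr-KO 1, 2, 3, 4 and 7. WT 1 thus lay among the Ahr-KO libraries (0.72 ± 0.14 without WT 1, adjusted p = 0.0394; 0.55 with it, adjusted p = 0.509). Erythroid marker genes moved with Ahr-KO 2 and 3, and without these Gata1 was at 0.56 (adjusted p = 0.107); their part in the result was not tested. Sox18 had 3.92 to 6.94 CPM in WT and 7.79 to 15 in Ahr-KO with no overlap (1.17 ± 0.21, adjusted p = 0.0307). The list's median was -0.03.

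Gpr160 rose by 1.25 ± 0.24 on the log2 scale without WT 1 (adjusted p = 0.0392), from 8.82 to 16.8 CPM in WT to 17.7 to 38.8 CPM in Ahr-KO. Its 2 highest libraries were Ahr-KO 2 and 3, at 34.3 and 38.8 CPM, and without them the fold change was 0.88 (adjusted p = 0.0992). Pim2, a survival kinase induced by cytokine signalling, rose by 0.78 ± 0.14 (adjusted p = 0.0326), and WT 1, at 96.6 CPM, was above all but 1 Ahr-KO library. It was the 1 called of 26 tested Socs, Stat and Jak pathway genes.

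Fut8, the enzyme that adds the core fucose to N-glycans, had 228, 279, 279, 234 and 239 CPM in WT 1, 4, 5, 6 and 8. In Ahr-KO 1, 2, 3, 4 and 7 it had 434, 398, 406, 379 and 472 CPM. The groups were well apart in all libraries (0.70 ± 0.08 without WT 1, adjusted p = 0.00349; 0.73 ± 0.09 with 10 libraries, adjusted p = 0.0516), although its exons sum to 7902 bases and the long genes were mostly lower. Apoe, the lipid carrier apolipoprotein E, had 505 to 559.7 CPM in WT 4, 5, 6 and 8 and 719 to 825 in Ahr-KO, with 922 in WT 1 (0.56 ± 0.05 without WT 1, adjusted p = 6.95e-04; 0.36 ± 0.16 with it, adjusted p = 0.556). It was the 1 called of 34 tested genes of cholesterol and lipid transport, with a list median of -0.04.

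**Figure D3:**
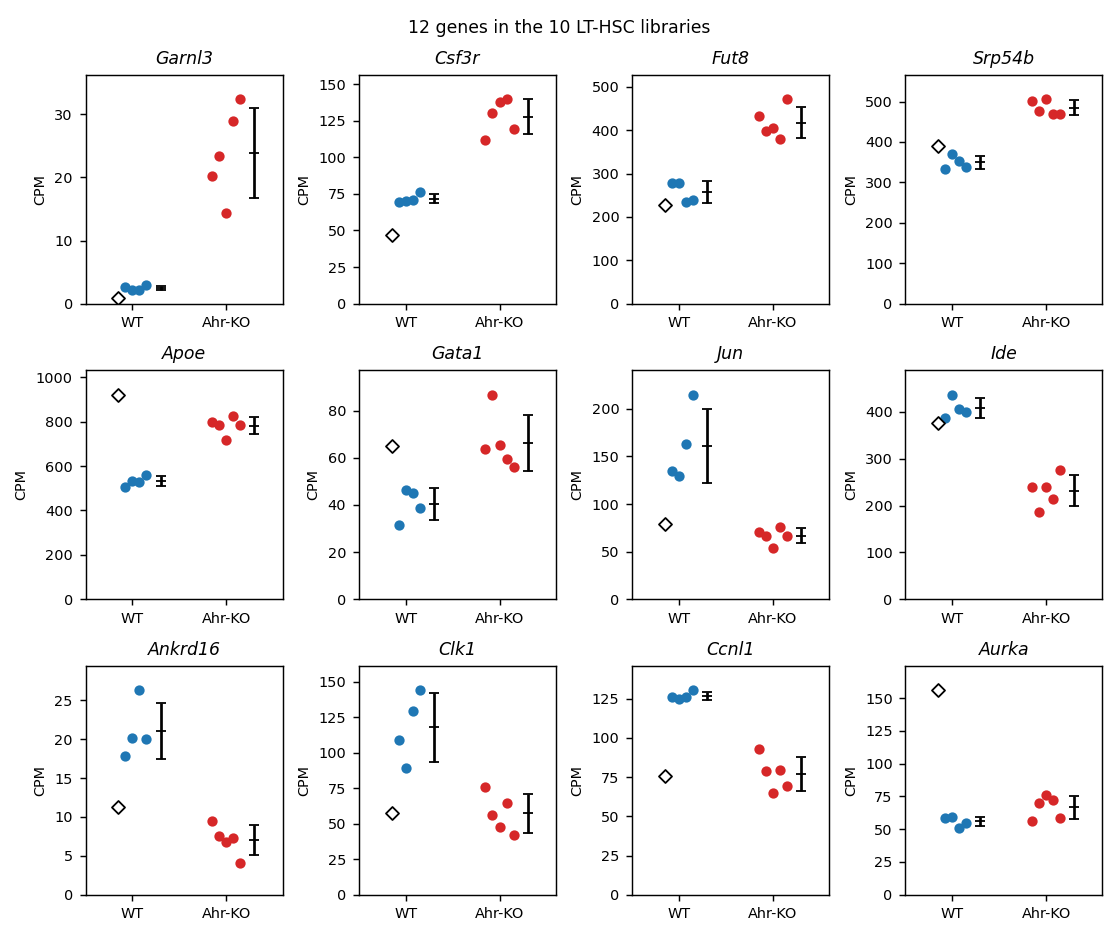
CPM of 12 genes in each LT-HSC library: WT 4, 5, 6 and 8 (blue), WT 1 (open diamond) and Ahr-KO (red); the bars are the mean ± SD of the 4 WT libraries without WT 1 and of the 5 Ahr-KO libraries. For Garnl3, Csf3r and Fut8 all Ahr-KO points lie above all WT points, and WT 1 lies near the Ahr-KO level for Gata1, Jun, Clk1 and Ccnl1 and far above both groups for Aurka.

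Interferon-induced and antigen presentation genes were mostly at positive values. Of 50 tested interferon response genes 43 were positive without WT 1, with a median of 0.28 against 0.02 for all genes, and 2 passed the test, Ifitm3 and Cmpk2. Ifitm3, which blocks virus entry, had 322 to 390.1 CPM in WT 4, 5, 6 and 8 and 429 to 538 in Ahr-KO, with WT 1 at 537 (0.43 ± 0.08, adjusted p = 0.0275; 0.51 without Ahr-KO 2 and 3, adjusted p = 0.0304). With 10 libraries the list's median was 0.16 and none was called. Ly6e, an interferon-induced surface protein outside this list, rose by 0.34 ± 0.05 (adjusted p = 0.0176) and was at 1065 CPM in WT 1, above every Ahr-KO library.

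All 10 tested MHC class II genes were positive without WT 1 (median 0.41), 8 with an unadjusted p under 0.05 (80.0%, background 18.9%), and 1, H2-Ab1, passed. With 10 libraries 9 were positive and the median was 0.24. H2-Ab1, the beta chain of the antigen-presenting dimer, had 42.3, 49.5, 39.0 and 38.5 CPM in WT 4, 5, 6 and 8 and 68.2, 84.2, 69.2, 58.8 and 105 in Ahr-KO 1, 2, 3, 4 and 7. WT 1, at 129 CPM, was above them all (0.86 ± 0.15 without it, adjusted p = 0.0303; 0.37 ± 0.34 with it; 0.86 without WT 1 and Ahr-KO 2 and 3, adjusted p = 0.0776). Psmb8, a catalytic subunit of the immunoproteasome, was the 1 called of 26 tested class I and antigen processing genes (0.36 ± 0.05, adjusted p = 0.0176), with 166 to 178 CPM in WT 4, 5, 6 and 8, 206 to 236 in Ahr-KO and 379 in WT 1. Thus for these genes the higher level in Ahr-KO was seen against 4 WT libraries and not against the 5th.

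Ribosomal protein genes had small positive values, and few passed the test. All 82 tested were positive, with a median of 0.18 without WT 1 and 0.22 with 10 libraries, and in 43 all Ahr-KO libraries were above all WT libraries (background 2.53%). Their summed CPM was 23998 to 28404 in WT and 29029 to 31086 in Ahr-KO. The test was passed by 5, among them Rps26 (0.35 ± 0.06, adjusted p = 0.0236), Rps13, Rpl26 and Rpl7, these 4 with log2 fold changes of 0.21 to 0.35; Rpl7 was chosen after its values were seen. Processed copies of ribosomal protein genes share reads with them, so that values of single members are uncertain.

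These genes are short, with a median exon length of 1775 bases, and all tested genes of at most 1848 bases had a median of 0.17. With the length offset 79 of 82 were positive, the median was 0.13 and 1 member, Rps13, was called (adjusted p = 0.0499). Without Ahr-KO 2 and 3 none was called. The 76 tested nuclear genes of oxidative phosphorylation, of 1696 bases, gave 73 positive values and a median of 0.17 without WT 1, but 37 and -0.01 with 10 libraries. The 13 mitochondrially encoded genes were all positive, with a median of 0.29 without WT 1, 0.52 with 10 libraries, where WT 1 had the low mitochondrial share, and 0.15 with the length offset. None of the genes of either list passed in edgeR. Of the nuclear and mitochondrial genes, 42 (55.3%) and 11 (84.6%) had an unadjusted p under 0.05 without WT 1 (background 18.9%). DESeq2 called 22 and 5 and voom 7 and 3, against 1270 and 487 of all 16338 genes.

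Glutathione and antioxidant genes gave 35 positive values of 40 tested (median 0.15), and 4 rose: Gclm, the modifier subunit of the enzyme that starts glutathione synthesis, and the glutathione transferases Gstp1, Gstp2 and Gstt1. With 10 libraries 26 were positive, the median was 0.07 and none was called. Without Ahr-KO 2 and 3 as well as WT 1, 28 were positive, the median was 0.06 and none was called either. Gclm had 141 to 168 CPM in WT and 179 to 235 in Ahr-KO, with no overlap (0.39 ± 0.08, adjusted p = 0.0436). Gstp1 and Gstp2 (0.26 and 0.28) are near-identical copies and their reads cannot be assigned with certainty. Gstt1 rose by 0.78 ± 0.16 (adjusted p = 0.0452), with WT 1 at 29.1 CPM against 12.2 to 14.7 in the other WT libraries. Nqo1, an enzyme under control of both AHR and Nrf2 and chosen after its values were seen, was at 14.9 to 24.2 CPM in WT and 15.4 to 22.4 in Ahr-KO (0.02 ± 0.14).

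Of 11 tested aldo-keto reductases and carboxylesterases, Ces2g rose and Akr1c12 fell. Ces2g, a carboxylesterase, had 30.2 to 42.3 CPM in WT and 45.2 to 76.9 in Ahr-KO (0.89 ± 0.17, adjusted p = 0.0345). It was highest in Ahr-KO 2 and 3, at 76.9 and 75.9 CPM, and without them the fold change was 0.67 (adjusted p = 0.105). Akr1c12 had 23.2, 16.0, 11.7, 17.4 and 15.7 CPM in WT 1, 4, 5, 6 and 8 and 8.37, 4.74, 8.30, 9.62 and 6.62 in Ahr-KO 1, 2, 3, 4 and 7. No library of one group reached the other in either gene. Akr1c12 fell by 1.01 ± 0.20 without WT 1 (adjusted p = 0.0392) although it is short, at 1261 bases. With Ahr-KO 2 and 3 left out as well, Akr1c12 was at -0.89 (adjusted p = 0.0849).

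Neighbouring genes on chromosome 12 moved together. Srp54a (55080262 to 55115367), Fam177a (55124469 to 55142104), Srp54b (55155104 to 55189573) and 1700047I17Rik2 (55199592 to 55217168), all on GRCm38, were all higher. Srp54a and Srp54b encode the signal recognition particle subunit that binds the leader peptide of secreted proteins. They are near-identical copies, and reads may be split between them. Fam177a and 1700047I17Rik2 follow them in the same order, with summed exon lengths of 3922 and 3863 bases. Whether these too share reads was not tested, so the neighbours need not be separate observations. Srp54b had 334 to 389 CPM in WT and 470 to 506 in Ahr-KO (0.47 ± 0.05, adjusted p = 0.00223), and Srp54a 143 to 168 and 203 to 222 (0.50 ± 0.05, adjusted p = 0.00349). Fam177a was at 0.48 ± 0.08 (adjusted p = 0.0223) and 1700047I17Rik2, chosen after its values were seen, at 0.61 ± 0.12 (adjusted p = 0.0392). They lie 19.5 to 19.7 Mb from Ahr.

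On the same chromosome Strn3, Heatr5a and Dtd2, chosen after their values were seen and 16.1 to 16.5 Mb from Ahr, were lower, by log2 values of -0.33, -0.40 and -0.53. In all, 14 of 503 tested genes of chromosome 12 were called (2.78%), against 1.24% of all genes and 2.48% on chromosome 10, the next. The copies at Srp54b are counted singly here. Fut8 and Rbm25 are also on chromosome 12, 41.7 and 48.1 Mb away.

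Immediate early genes and AP-1 members were at lower values, and 2 of 34 tested fell (median -0.23 without WT 1 and -0.24 with 10 libraries). Jun, the AP-1 subunit, had 78.6, 135, 129.8, 163 and 215 CPM in WT 1, 4, 5, 6 and 8 and 70.3, 66.6, 54.0, 75.8 and 66.3 in Ahr-KO 1, 2, 3, 4 and 7. WT 1 was the lowest of its group yet still above all Ahr-KO libraries, and Jun fell by 1.27 ± 0.14 without WT 1 (adjusted p = 0.00406) and by 1.11 ± 0.22 with it, where it did not pass (adjusted p = 0.250). Gem, a small GTPase induced by growth factors, had 17.9 to 28.3 CPM in WT and 9.54 to 15.5 in Ahr-KO (fell by 1.10 ± 0.15, adjusted p = 0.0123). Both are short genes, and both passed with the length offset and without Ahr-KO 2 and 3.

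Ide, the insulin-degrading enzyme, and Fgfbp3, a secreted carrier of fibroblast growth factors, lie 349128 bases apart on chromosome 19, and both fell. Ide had 376, 387, 437, 407 and 399 CPM in WT 1, 4, 5, 6 and 8 and 239.8, 187, 239, 215 and 276 in Ahr-KO 1, 2, 3, 4 and 7. Fgfbp3 had 16.3 to 29.8 CPM in WT and 8.20 to 9.76 in Ahr-KO. The groups did not overlap in either. WT 1 lay near the other WT libraries for Ide. For Fgfbp3 it was at 29.8 CPM, above the 16.3 to 19.8 of the other WT libraries and so further from Ahr-KO. Without WT 1, Ide fell by 0.82 ± 0.09 (adjusted p = 0.00349) and Fgfbp3 by 1.0 ± 0.12 (adjusted p = 0.00406). With 10 libraries the adjusted p was 0.0516 and 0.0978.

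Genes of splicing kinases and their substrates were the list with most calls. Of 41 tested, 31 were negative without WT 1 (median -0.21), and 7 were called lower, against 0.814% of all genes. These were the cyclin Ccnl1, the kinases Clk1 and Clk4, which phosphorylate splicing factors of the SR family, and the RNA-binding proteins Rbm25, Luc7l, Arglu1 and Pabpn1. The last 3 were chosen after their values were seen. Ccnl1 had 75.8 CPM in WT 1, 125 to 130.5 in WT 4, 5, 6 and 8 and 65.0 to 92.7 in Ahr-KO (fell by 0.72 ± 0.09, adjusted p = 0.00675). WT 1 thus sat within the Ahr-KO range, and with it the change was -0.60 (adjusted p = 0.421).

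Clk1 had 57.7, 109, 88.9, 129 and 144 CPM in WT 1, 4, 5, 6 and 8 and 75.7, 55.8, 47.6, 64.9 and 42.1 in Ahr-KO 1, 2, 3, 4 and 7 (fell by 1.04 ± 0.18, adjusted p = 0.0320). Clk4 had 58.2 to 82.4 CPM in WT and 36.2 to 48.4 in Ahr-KO, with no overlap (fell by 0.75 ± 0.11, adjusted p = 0.0162). In 9 of the 41 genes all Ahr-KO libraries were below all WT libraries, against 1.23% of all genes. The list is long, with a median of 7003 bases, and with the length offset its median was -0.12 and 3 members were called. Without Ahr-KO 2 and 3 the median was -0.21 and 2 members, Ccnl1 and Rbm25, were called.

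Genes of the list of nuclear long noncoding RNAs were lower in 18 of 20 tested (median -0.38), and Firre, Neat1 and Snhg5 fell. Where in the cell each transcript lies, that of Snhg5 included, was not tested. Firre, which helps shape nuclear architecture, had 5.03, 24.1, 17.9, 30.7 and 29.1 CPM in WT 1, 4, 5, 6 and 8 and 13.8, 8.56, 5.23, 12.2 and 6.43 in Ahr-KO 1, 2, 3, 4 and 7. WT 1 was below every Ahr-KO library, while the other WT libraries were above them all (fell by 1.46 ± 0.27, adjusted p = 0.0357; with 10 libraries -1.20, adjusted p = 0.509). Neat1, the scaffold of paraspeckles, behaved the same way, at 5.36 CPM in WT 1, 18.8 to 25 CPM in WT 4, 5, 6 and 8, and 5.63 to 14.5 CPM in Ahr-KO (fell by 1.27 ± 0.26, adjusted p = 0.0406). Snhg5, with a short summed exon length of 1730 bases, fell by 0.85 ± 0.18 (adjusted p = 0.0435) with no overlap of the groups. With 10 libraries the list's median was -0.22. With the length offset it was -0.27, without Ahr-KO 2 and 3 it was -0.37, and none of the 3 passed in any of these fits.

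Ankrd16, which takes part in proofreading by alanyl-tRNA synthetase, was the lowest of the called genes above 5 CPM. It had 11.3, 17.9, 20.1, 26.3 and 20 CPM in WT 1, 4, 5, 6 and 8 and 9.50, 7.54, 6.79, 7.36 and 4.08 in Ahr-KO 1, 2, 3, 4 and 7. All Ahr-KO libraries were below all WT libraries (fell by 1.57 ± 0.21 without WT 1, adjusted p = 0.00925; with the length offset adjusted p = 0.0120). Adamts10, a secreted metalloprotease, fell by 1.06 ± 0.16 (adjusted p = 0.0176), from 33.2 to 48.2 CPM in WT 4, 5, 6 and 8 to 14.4 to 24.6 in Ahr-KO, and WT 1 was at 10.6.

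Few stem cell regulators were called. Of 39 tested LT-HSC identity genes, 12 were positive and 27 negative without WT 1 (median -0.08), and Ctnnal1 was the 1 that passed. The balance of signs turned without Ahr-KO 2 and 3, to 25 positive and 14 negative (median 0.02) without WT 1 and to 22 and 17 (median 0.05) with it. Ctnnal1, which encodes alpha-catulin and marks stem cells, had 81.4 to 94.1 CPM in WT and 58.9 to 78.5 in Ahr-KO (fell by 0.40 ± 0.09, adjusted p = 0.0453; -0.31 without Ahr-KO 2 and 3, adjusted p = 0.132). Mecom, a factor needed to keep stem cells, was at -0.42 ± 0.11 (adjusted p = 0.0777), and Ly6a, which encodes Sca-1, at 0.60 ± 0.15 (adjusted p = 0.0709). Hoxa9, a homeobox factor of stem and progenitor cells, fell by 0.46 ± 0.09 (adjusted p = 0.0392), the 1 called of 22 tested Hox, Meis and Pbx genes. Tet1, which oxidises methylcytosine, and Cbx7, a Polycomb subunit, were the 2 called of 40 DNA methylation and chromatin genes (-0.63 and -0.74), and 31 of the 40 were negative (median -0.09). With 10 libraries 23 were negative, with the length offset the median was -0.02, and neither of these fits nor the one without Ahr-KO 2 and 3 called a member. Tet1 had 11 CPM in WT 1 against 52.9 to 78.3 in the other WT libraries and 36.1 to 53.9 in Ahr-KO.

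**Figure D4:**
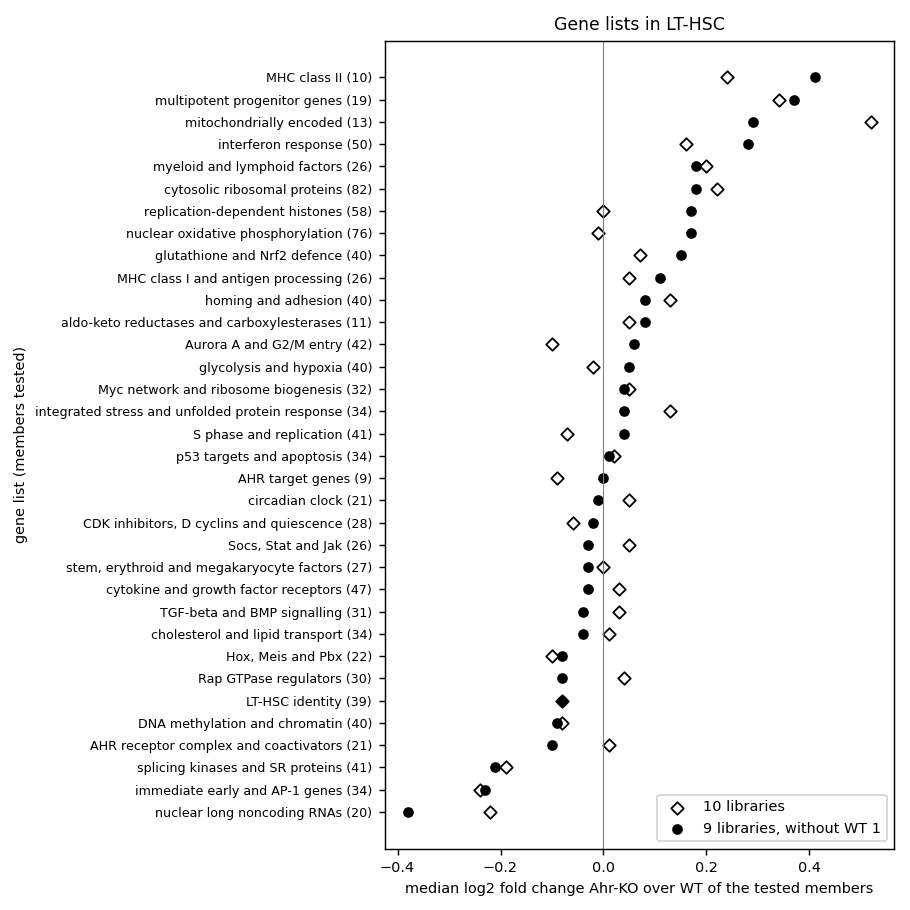
Median log2 fold change of Ahr-KO over WT in LT-HSC (x axis) for each gene list (y axis, with the number of members tested without WT 1), with 10 libraries (open) and without WT 1 (filled). The medians without WT 1 run from -0.38 for nuclear long noncoding RNAs to 0.41 for MHC class II, and that of Aurora A and G2/M entry moves from -0.10 to 0.06.

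None of the genes of the AHR pathway was called. Of 21 tested genes of the receptor complex and its coactivators, 14 were negative without WT 1 (median -0.10), with 10 at an unadjusted p under 0.05 (background 18.9%). DESeq2 called 4 and voom 1 of them, against 1270 and 487 of all 16338 genes. With 10 libraries 11 were positive and 10 negative (median 0.01), and with the length offset the median was -0.02; these genes are long, at a median of 6163 bases. Arnt, the partner of AHR, had 80.1 to 82.4 CPM in WT 4, 5, 6 and 8, 23.6 in WT 1 and 66.4 to 89.4 in Ahr-KO (-0.01 ± 0.08). Of 24 listed AHR target genes 9 were expressed enough to be tested. Of these, 0 had an unadjusted p under 0.05, DESeq2 and voom called 0, and the median was 0.00. It was -0.09 with 10 libraries and -0.25 without WT 1 and Ahr-KO 2 and 3. The smallest p was that of Ahrr, at -1.41 ± 0.65 (adjusted p = 0.266) and at -1.26 without Ahr-KO 2 and 3 (adjusted p = 0.210). It is near the floor, at 1.38 to 2.89 CPM in WT 4, 5, 6 and 8, 0 in WT 1 and 0 to 1.45 in Ahr-KO. Tiparp, chosen after its values were seen, had 23.3 to 43.7 CPM in WT and 22.9 to 29.0 in Ahr-KO (-0.26 ± 0.15).

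The genes named in the title of the series, Aurora A and those of the passage from G2 into mitosis, gave 0 calls of 42 tested in edgeR. Without WT 1, 6 had an unadjusted p under 0.05 (14.3%, background 18.9%). DESeq2 called 2 and voom 0, against 1270 and 487 of all 16338 genes. Aurka, the Aurora A kinase itself, had 156, 58.4, 59.0, 51.2 and 55.0 CPM in WT 1, 4, 5, 6 and 8 and 55.9, 70.2, 76.2, 72.5 and 58.4 in Ahr-KO 1, 2, 3, 4 and 7. WT 1 was far above all other libraries, and the sign turned on it: -0.19 ± 0.30 with 10 libraries (adjusted p = 0.907) and 0.25 ± 0.10 without WT 1 (adjusted p = 0.208). Plk1, the kinase that Aurora A activates, went from -0.07 to 0.37, and the mitotic cyclin gene Ccnb1 from -0.23 to 0.26.

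For these mitotic genes Ahr-KO 2 and 3, the libraries with mature cell RNA, were again among the high ones: without them Aurka was at 0.15 (adjusted p = 0.551), Plk1 at 0.19 and Ccnb1 at 0.09, and the part of those cells was not tested. Cdk1 was at -0.05 with 10 libraries and 0.11 without WT 1. The median of the list was -0.10 with 10 libraries and 0.06 without WT 1, with 10 and 28 positive values of 42. Pkmyt1, a kinase that holds Cdk1 inactive, had 26.5 to 32.9 CPM in WT and 17.9 to 25.9 in Ahr-KO, with no overlap, and did not pass (-0.43 ± 0.12, adjusted p = 0.0868).

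Multipotent progenitors (MPP), sorted in the same way from mice of both genotypes, give the same contrast in 10 other libraries; whether they came from the same animals is not given. There 5 of 16077 genes were called (0.0311%). Of the 200 LT-HSC calls that were tested in MPP, 131 had the same sign (65.5%, background 56.2%). The 2 directions differed: 58 of 69 higher genes had the same sign (84.1%, background 56.8%), while of the lower genes it was 73 of 131 (55.7%, background 55.5%). The higher genes are not all separate observations, as they hold ribosomal protein genes and copies that share reads, with 11 pseudogenes among the 70. Of 82 tested ribosomal protein genes 81 were positive in MPP (median 0.21), so the background of all genes is not matched to this set. With the same sign and an unadjusted p under 0.05 in MPP there were 28 (background 3.87%), and 3 were called in MPP as well, Garnl3, Apoe and Akr1c12.

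Garnl3 was at 3.31 ± 0.43 in MPP (adjusted p = 0.0373), Apoe at 0.68 ± 0.09 (adjusted p = 0.0375) and Akr1c12 at -1.30 ± 0.17 (adjusted p = 0.0373). Ide was at -0.81 ± 0.18, beside -0.82 in LT-HSC, but did not pass (adjusted p = 0.398). The 4 neighbouring genes at Srp54b were at 0.30 to 0.42 in MPP, each with an unadjusted p under 0.01 and none called. With copies among them, they need not be separate observations. By contrast the splicing list had 34 of 41 positive values in MPP (median 0.14, against -0.21 in LT-HSC), with Clk1 at 0.38 and Ccnl1 at 0.35, and the nuclear noncoding RNAs had a median of 0.34.

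The test of the difference between the effects in LT-HSC and MPP, on all 20 libraries, called 0 of 17416 genes in edgeR and 18 in voom, with 1125 at an unadjusted p under 0.05 (6.46%). Among the LT-HSC calls tested in MPP, 9 higher and 48 lower genes had an unadjusted p under 0.05, but these calls were picked by their LT-HSC effect. For Ccnl1 the difference was -0.97 (adjusted p = 0.324) and for Clk1 -1.28 (adjusted p = 0.405), so that these genes were not shown to differ between the populations. This fit holds WT 1, which lay within the Ahr-KO range of LT-HSC for both, at 75.8 and 57.7 CPM. The same fit without WT 1 also called 0 genes. Ahr itself, at 0.69 ± 0.27 in MPP, did not pass there either (adjusted p = 0.663).

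**Figure D5:**
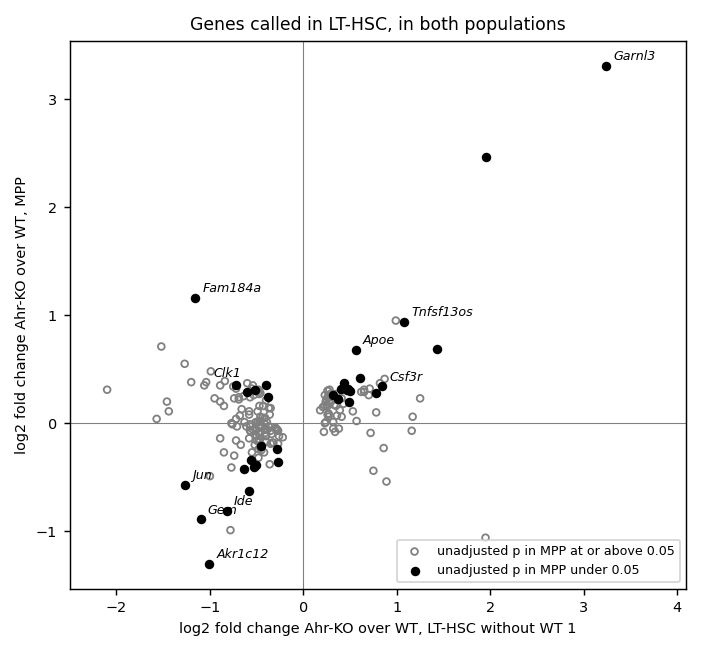
Log2 fold change of Ahr-KO over WT in LT-HSC without WT 1 (x axis) and in MPP (y axis) for the 200 called genes tested in both; filled points have an unadjusted p under 0.05 in MPP. Genes higher in Ahr-KO LT-HSC lie mostly above 0 in MPP (58 of 69), while the lower genes lie on both sides (73 of 131 below 0).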

How the data were processed

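RNA was measured by sequencing in 20 libraries, of which the 10 of LT-HSC were compared. The authors deposited whole-number counts for 49568 gene symbols in 1 table per population. Listed in the submitters' processing notes are STAR 2.5.2b, Trimmomatic 0.36, featureCounts of Subread 1.5.0p3, DESeq2 1.12.4 and the build GRCm38.p5, with no order or settings. In 26 rows a date stood in place of the symbol; these rows, at most 0.156% of a library, were kept. Coordinates and summed exon lengths came from GENCODE M21 (GRCm38), where 47114 symbols were found once, and promoters from RefSeq.

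Counts were fitted with edgeR 4.0.16 (R 4.3.3) after filterByExpr and TMM scaling, with robust dispersions and a two-sided quasi-likelihood test. P-values were adjusted by Benjamini-Hochberg across every gene in the fit, and genes with an adjusted p under 0.05 are the called genes. The difference between LT-HSC and MPP was an interaction term in 1 fit of 20 libraries. The SE of a log2 fold change is its size over the root of its F statistic. Alternatives were DESeq2 size factors, no filter, 5 CPM in 5 libraries, DESeq2 1.42.0, limma 3.58.1 voom with quality weights, a fold change of at least 1.5, leaving out libraries, the replicate number as a block, and, chosen after seeing the data, an offset for exon length. The code was tested on simulated data.

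The members and gene lists were chosen with earlier results of these data known. Named genes are Ahr, Arnt, Garnl3, Aurka, Ccnb1, Cdk1 and Plk1, those called with 10 libraries, the 15 highest, 15 lowest and 15 with the smallest p in each direction without WT 1 among called genes of at least 5 CPM on average (gene models and pseudogenes left out), and up to 3 called members of each list, or its member with the smallest p. Other genes are said to be chosen after their values were seen, except marker genes of other cell types, given as levels only. Some single genes are not reported here. CPM below 1 rest on few counts, and without molecular identifiers counting error understates the error.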

Additional observations from a re-analysis of the deposited data

Results flagged for a closer look

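Values were marked where 1 library lay far from the others of its group of 5, by the ratio of its gap to the group's range; chance alone marks about 1 group in 20. Most were of WT 1. It was high for Apoe (922 CPM), Psmb8 (379), H2-Ab1 (129), Pim2 (96.6), Ly6e (1065), Cmpk2 (92.7), Gstp1 (192), Gstp2 (104), Gstt1 (29.1), Tnfsf13os (12.5), Fgfbp3 (29.8) and Hoxa9 (117). It was also high for the mitotic genes Aurka (156 CPM), Ccnb1 (339.6), Cdk1 (139) and Plk1 (147). It was low for Arnt (23.6 CPM), Csf3r (46.7), Clu (13.2), Rps26 (121), Rpl7 (327), Ccnl1 (75.8), Luc7l (68.3), Mecom (110.2), Pdk1 (93.7), Heatr5a (26.8), Kit (623) and Slamf1 (21.7), and for the mitochondrial share (0.386%). Tnfsf13os is an antisense gene, and without strand its reads cannot be told from those of Tnfsf13.

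In the other libraries, WT 6 was high for Pkmyt1 (32.9 CPM), Ahr-KO 7 for Sox18 (15) and Clu (53.3), and Ahr-KO 3 low for Rbm25 (121). The summed B and plasma cell markers were high in WT 5 (1057 CPM) and Ahr-KO 2 (2189), the mesenchymal markers in Ahr-KO 3 (4649), and the megakaryocyte markers were low there (2424).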

How the results depend on the processing

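With 10 libraries the count of 1 called gene became 3 with DESeq2 size factors, 4 with no filter, 3 with the filter of 5 CPM, 149 with DESeq2 (63 higher, 86 lower), 305 with voom (141 higher, 164 lower) and 2 with the length offset. Leaving out 1 replicate gave 0 to 203 calls, with 203 without WT 1. The labels share only the numbers 1 and 4 between the groups. The deviations of same-numbered libraries correlated at -0.07 and 0.06, within the -0.19 to 0.21 of the other pairs. With so few pairs, and WT 1 among them, this cannot tell whether the numbers pair the samples. A replicate block on these 4 libraries gave 0 calls, and the same 4 without the block 0. Without WT 1 the 203 calls became 395 with the filter of 5 CPM, 1270 with DESeq2 (573 and 697), 487 with voom, 1 at a fold change of at least 1.5, 60 with the length offset, 32 without Ahr-KO 2 and 3, and 16 with the last 2 together. Leaving out 1 further replicate gave 12 to 292 calls. DESeq2 size factors (205) and no filter (292) stayed within 1.5 times. The comparison of LT-HSC with MPP gave 18 calls in voom. The cause of these shifts was not tested.

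Of the called genes without WT 1, 1 of 201 turned its sign with 10 libraries, 7 of 199 with 10 libraries and the length offset, and 1 of 201 with the offset and without Ahr-KO 2 and 3. Among the genes followed singly, those that turned were not called. Putting WT 1 back turned Aurka to -0.19, Ccnb1 to -0.23, Cdk1 to -0.05, Plk1 to -0.07, Nqo1 to -0.06, Arnt to 0.21, Kit to 0.14 and Hgf to 0.00. With 10 libraries, voom turned Arnt (-0.03), Aurka (0.23), Ccnb1 (0.24), Cdk1 (0.10) and Plk1 (0.35), and leaving out WT 1 turned the same genes (-0.01, 0.25, 0.26, 0.11 and 0.37). Plk1 also turned with the offset and without Ahr-KO 7 (both 0.01). Without WT 1, the offset gave Arnt 0.09, Kit 0.04 and Nqo1 -0.05, and with Ahr-KO 2 and 3 left out too 0.12, 0.13 and -0.02. Leaving out Ahr-KO 2 and 3 alone gave Arnt 0.02, Kit 0.02 and Procr 0.03. Arnt was at 0.06 without Ahr-KO 2, and Nqo1 at -0.03 in voom, -0.01 without Ahr-KO 4, -0.05 without Ahr-KO 7 and -0.07 without WT 5. Over the replicates left out in turn, these genes reached 0.28 (Arnt), -0.32 (Aurka), -0.37 (Ccnb1), -0.12 (Cdk1) and -0.20 (Plk1) with 10 libraries and 0.08 (Nqo1) without WT 1. Depth limits only genes near 1 CPM.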
